A study of Macaca fascicularis with 7 samples.

Results

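Genes of the proteasome were measured in cynomolgus monkey (Macaca fascicularis) oocytes. They were taken from the deposited gene table by name, as every row that begins with PSM, a letter from A to G and a number. The rule found 47 of 28161 usable gene rows. Of these, 46 encode proteasome subunits, regulators or assembly chaperones and fall into 9 roles. The remaining match, PSMC3IP, shares the letters but encodes a cofactor of meiotic recombination, and stays out of every count below. A gene of the complex that the name rule missed was PSMC6, a 19S ATPase listed only under a locus identifier, whose values are given apart. PSMD6 was not analysed here.

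The proteasome is the protease that degrades proteins tagged with ubiquitin. Its core, the 20S particle, is a barrel of stacked rings, with alpha subunits in the outer rings guarding the entrance and beta subunits, some of which cut the substrate, in the inner rings. The 19S particle caps the barrel, binds ubiquitin chains, removes them and threads the unfolded substrate inwards with a ring of ATPases. In oocytes the proteasome removes cyclin B and securin, which lets the chromosomes separate at the first meiotic division and again when metaphase II arrest ends at fertilization.

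The libraries fell into 3 groups, all labelled wild type. In vitro matured metaphase II oocytes (IVM MII, labelled treated) matured in culture and gave 3 libraries. In vivo matured metaphase II oocytes (IVO MII, labelled control) matured in the animal and gave 2 libraries. Germinal vesicle oocytes (GV, labelled control), which have not resumed meiosis, gave 2 libraries. The labels name no animal, no age and no number of oocytes behind a library, so the p-values reflect no more than the spread among these libraries, which may be technical.

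Library totals ran between 22901970 and 29245733 counts, and 3 counts in a library stood for 0.0907 to 0.161 CPM (counts scaled to a common library size, with TMM, the trimmed mean of M values). The TMM factors were 0.766 to 0.985 in the MII libraries and 1.38 to 1.42 in the GV libraries. Whether an MII value lies above or below GV can therefore depend on the scaling. All 8 oocyte markers found, among them ZP2, GDF9 and DDX4, had counts in every group. Summed markers of cumulus and granulosa cells, the somatic cells around the oocyte, reached 97.2 to 217 CPM in IVM MII, 61.4 to 102 in IVO MII and 18.4 to 19.6 in GV. Most of the sum came from TNFAIP6, FSHR and HAS2, each with more CPM in every MII library than in GV. TNFAIP6 had 55.6 to 149 CPM in IVM MII, 46.1 and 18.2 in IVO MII, and 7.20 and 13.8 in GV. AMH and PTX3 were at 0 in all libraries. Summed markers of stroma, theca and endothelium reached 60.8 to 89.8 CPM in IVM MII, 88.5 to 127 in IVO MII and 1081 to 1212 in GV, where VWF made up most of the sum. Their part in the results below was not tested. The labels place the GV alignments and the MII alignments in separate project folders, so folder and stage cannot be told apart. Where a library holds RNA of several cells, fewer cells of a type and less RNA per cell cannot be told apart either. If priming was on poly(A), a change in tail length can alter a count.

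Of the 46 genes, 43 passed the filter on low counts and were tested. The 3 others were the immunoproteasome gene PSMB8, the thymus gene PSMB11 and the activator PSME2. All differences were tested with edgeR's quasi-likelihood test over 16374 genes with Benjamini-Hochberg adjustment, and a gene was called at an adjusted p under 0.05. In IVO MII against GV, 3 proteasome genes rose and 18 fell, which is 6.98% and 41.9% of those tested. Among all genes tested in that comparison, 14.6% rose and 13.5% fell. Of the same 43 genes, 5 rose and 19 fell in IVM MII against GV, which is 11.6% and 44.2%, against 18.5% and 17.8% of all genes tested. In IVM MII against IVO MII, 0 of 43 rose and 0 fell, where 0.892% of all genes rose and 0.58% fell (146 and 95 genes, or 127 and 125 with upper quartile scaling). The median log2 fold change over the 43 genes was −0.94 in IVO MII against GV, where that of all genes was −0.16. In IVM MII against GV it was −1.10, or −0.88 with PSMB10, which had no counts in IVM MII, set at the floor of 3 counts a library, and the median of all genes was −0.10. Both MII comparisons use the same GV libraries.

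**Figure D1:**
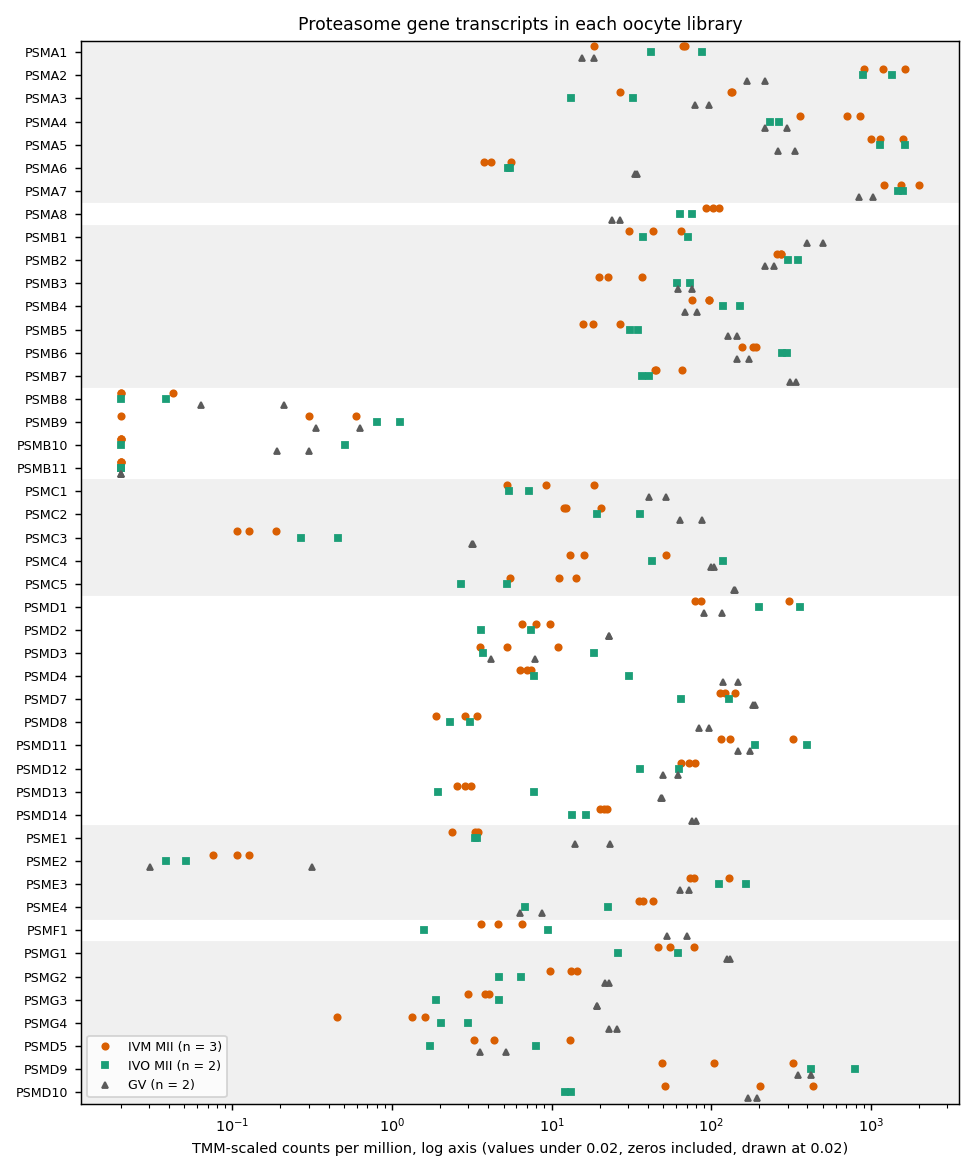
CPM (TMM scaled, log axis) of the proteasome genes, 1 row a gene and grouped by role, in the 3 IVM MII, 2 IVO MII and 2 GV libraries, 1 point a library, with values under 0.02 CPM drawn at 0.02. The genes span levels from 0 for PSMB11 to about 2011 CPM for PSMA7, and MII points lie far left of the GV points for PSMD8, PSMC5 and PSMF1 and right of them for PSMA2 and PSMA5.

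The alpha subunits of the 20S core went both ways in MII against GV. PSMA2 and PSMA5 rose in both kinds of MII oocyte, PSMA4 rose in IVM MII, and PSMA6 fell in both. PSMA2 had 1644, 1185 and 904 CPM in IVM MII, 1352 and 888 CPM in IVO MII, and 168 and 218 CPM in GV. Every MII library lay above both GV libraries. The log2 fold change was 2.69 ± 0.40 (SE; edgeR adjusted p = 0.00213) in IVM MII against GV and 2.54 ± 0.41 (edgeR adjusted p = 0.00377) in IVO MII against GV. The PSMA2 row pools exon blocks on chromosome 3 (891 bases in 8 blocks, from 77538367 to 77552958) and on chromosome 10 (508 bases in 4 blocks), so its counts cannot be given to 1 locus.

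PSMA5, whose row covers 1 locus on chromosome 1 (117327781 to 117353077), had 1577, 1138 and 1002 CPM in IVM MII, 1622 and 1134 CPM in IVO MII, and 261 and 336 CPM in GV. Its 5 MII libraries all lay above the GV libraries. It rose by 2.05 ± 0.35 on the log2 scale (SE; edgeR adjusted p = 0.00341) in IVM MII and 2.21 ± 0.38 (edgeR adjusted p = 0.00446) in IVO MII, each against GV.

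PSMA6 went the other way. It had 3.76, 5.58 and 4.17 CPM in IVM MII, 5.30 and 5.48 CPM in IVO MII, and 33.5 and 34.2 CPM in GV, with no overlap between MII and GV libraries. The log2 fold change was −2.91 ± 0.40 (SE; edgeR adjusted p = 0.00182) in IVM MII and −2.65 ± 0.47 (edgeR adjusted p = 0.00491) in IVO MII, each against GV.

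PSMA4 had 850.0, 708 and 358 CPM in IVM MII, 266 and 233 CPM in IVO MII, and 218 and 298 CPM in GV. With TMM scaling the IVM MII libraries were the high ones, while the IVO MII values lay within the range of the GV values. PSMA4 rose in IVM MII against GV by 1.31 ± 0.41 on the log2 scale (SE; edgeR adjusted p = 0.0359), and its IVO MII against GV value was −0.05 ± 0.43 (adjusted p = 0.945). The IVM MII call was lost with RLE scaling (adjusted p = 0.0588) and without IVM MII replicate 1 or 2 or either GV library (0.0849 to 0.244). Between the MII groups the difference was 1.36 ± 0.41 (adjusted p = 0.114).

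PSMA7, the alpha subunit with the highest count level per kilobase in GV, had 1552, 1209 and 2011 CPM in IVM MII, 1593 and 1484 CPM in IVO MII, and 835 and 1034 CPM in GV. With TMM scaling all MII values were above the GV values, but neither comparison passed the threshold (log2 0.77 ± 0.32, edgeR adjusted p = 0.0899, in IVM MII, and log2 0.72 ± 0.34, adjusted p = 0.147, in IVO MII). In raw counts the groups overlapped. IVM MII replicates 1 and 2 had 28917 and 28611 counts, below the 32683 of GV replicate 2, whose library total was smaller. PSMA1 had 68.5, 66.6 and 18.4 CPM in IVM MII, 87.4 and 41.8 CPM in IVO MII, and 18.5 and 15.5 CPM in GV. IVM MII replicate 3 lay at the GV level, and PSMA1 was not called (edgeR adjusted p = 0.0698 in IVM MII and 0.0561 in IVO MII, each against GV).

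PSMA8 encodes the germline alternative to PSMA7 in the alpha ring, which is known from mouse testis to be needed for male meiosis. It had 112, 102 and 91.9 CPM in IVM MII, 75.8 and 63.2 CPM in IVO MII, and 23.7 and 26.7 CPM in GV. The 3 groups did not overlap. PSMA8 rose by 2.02 ± 0.32 on the log2 scale (SE; edgeR adjusted p = 0.00262) in IVM MII and 1.46 ± 0.33 (edgeR adjusted p = 0.0131) in IVO MII, each against GV, the second of which missed the threshold when GV replicate 1 (adjusted p = 0.147) or GV replicate 2 (adjusted p = 0.106) was left out. Between the MII groups it differed by 0.55 ± 0.30 (adjusted p = 0.329). As a share of PSMA7 and PSMA8 together, per kilobase of exon, PSMA8 made up 5.80%, 6.75% and 3.77% in IVM MII, 3.92% and 3.52% in IVO MII, and 2.37% and 2.16% in GV. Exact two-sided permutation tests gave p = 0.4 for IVM MII against IVO MII (n = 3 and 2), p = 0.2 for IVM MII against GV (n = 3 and 2) and p = 0.333 for IVO MII against GV (n = 2 each), where the smallest values these group sizes allow are 0.2, 0.2 and 0.333. The PSMA8 row also pools blocks on chromosome 18 with blocks on an unplaced sequence.

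No standard beta subunit rose against GV in either MII group. Of the 7, 4 fell in IVM MII and 3 in IVO MII, each against GV, and they include 2 of the 3 that cut substrates. Beside this, 18.5% of all genes tested rose and 17.8% fell in IVM MII against GV. The shares in IVO MII against GV were 14.6% and 13.5%. With 7 genes, 0 that rose is near these shares. PSMB7, the trypsin-like protease, had 44.5, 65.5 and 44.8 CPM in IVM MII, 40.9 and 36.6 CPM in IVO MII, and 310 and 337 CPM in GV. Every MII library lay below the GV libraries, and the log2 value was −2.65 ± 0.31 (SE; edgeR adjusted p = 0.0014) in IVM MII and −3.06 ± 0.36 (edgeR adjusted p = 0.0021) in IVO MII.

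PSMB5, the chymotrypsin-like protease, had 18.2, 15.7 and 26.9 CPM in IVM MII, 31.1 and 34.8 CPM in IVO MII, and 127 and 145 CPM in GV. The groups did not overlap. PSMB5 fell by 2.75 ± 0.35 on the log2 scale (SE; edgeR adjusted p = 0.00156) in IVM MII and by 2.04 ± 0.39 (edgeR adjusted p = 0.00677; 0.0551 without GV replicate 2) in IVO MII, against GV. PSMB6, the caspase-like protease, had 183, 155 and 191 CPM in IVM MII, 299 and 276 CPM in IVO MII, and 145 and 171 CPM in GV. It was highest in the IVO MII libraries but passed no test (edgeR adjusted p = 0.190 in IVM MII against IVO MII, 0.681 in IVM MII against GV and 0.0634 in IVO MII against GV).

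PSMB1, a structural beta subunit, had 43.1, 65.0 and 30.5 CPM in IVM MII, 37.5 and 71.1 CPM in IVO MII, and 396 and 501 CPM in GV. MII values were low in all 5 libraries, and the log2 fold change was −3.28 ± 0.42 (SE; edgeR adjusted p = 0.00156) in IVM MII and −3.04 ± 0.49 (edgeR adjusted p = 0.00367) in IVO MII, each against GV. PSMB3, also structural, had 36.8, 22.6 and 19.7 CPM in IVM MII, 61.0 and 73.5 CPM in IVO MII, and 61.7 and 75.5 CPM in GV. It fell in IVM MII against GV by 1.38 ± 0.37 on the log2 scale (edgeR adjusted p = 0.0198), and its IVO MII against GV value was −0.03 ± 0.41 (adjusted p = 0.967). Without IVM MII replicate 2 or either GV library the IVM MII call of PSMB3 was lost (adjusted p = 0.0637 to 0.144). PSMB2 and PSMB4 were called in no comparison.

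Summed over each ring's standard subunits, alpha genes took 5827, 4447 and 4324 CPM in IVM MII, 4958 and 3800 CPM in IVO MII, and 1614 and 2032 CPM in GV. The beta genes took 694, 671 and 666 CPM in IVM MII, 970 and 910 CPM in IVO MII, and 1325 and 1558 CPM in GV. The alpha sum was thus higher, and the beta sum lower, in every MII library than in either GV library. Shares of a library's total count use no TMM factor but still scale by that total. By these shares alpha genes held 0.393% to 0.446% in IVM MII, 0.374% to 0.413% in IVO MII and 0.229% to 0.281% in GV. Beta genes held 0.0531% to 0.0605%, 0.0808% to 0.0896% and 0.188% to 0.215% in the same order of groups. The order of the groups in the sum over all 9 roles turned with the scaling, at 6914 CPM in IVM MII, 7121 CPM in IVO MII and 5459 CPM in GV with TMM, and 5879 CPM, 6464 CPM and 7642 CPM in the same order with unscaled totals.

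Levels per kilobase of exon let the genes be set against each other, although the finished core holds its 14 standard subunits in equal numbers. The ratio of the highest to the lowest of these genes was 656, 330 and 734 in the IVM MII libraries, 478 and 413 in the IVO MII libraries, and 73.7 and 109 in the GV libraries. In MII the lowest gene was PSMA6 and in GV it was PSMA1. By group means, PSMA7 was first in all 3 groups, with 1540 ± 390 CPM per kilobase in IVM MII (SD, n = 3), 1489 ± 74.4 in IVO MII (n = 2) and 905 ± 136 in GV (n = 2). PSMA5 followed in both MII groups and PSMB1 in GV. The 3 highest genes, PSMA7, PSMA5 and PSMA2 in MII and PSMA7, PSMB1 and PSMB7 in GV, made up 73.0% of the summed level in IVM MII, 74.7% in IVO MII and 54.8% in GV. In both MII groups PSMA7 and PSMA5 differed by less than the spread between the IVM MII libraries, and PSMA5 was the higher one in 2 of the 5 MII libraries.

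**Figure D2:**
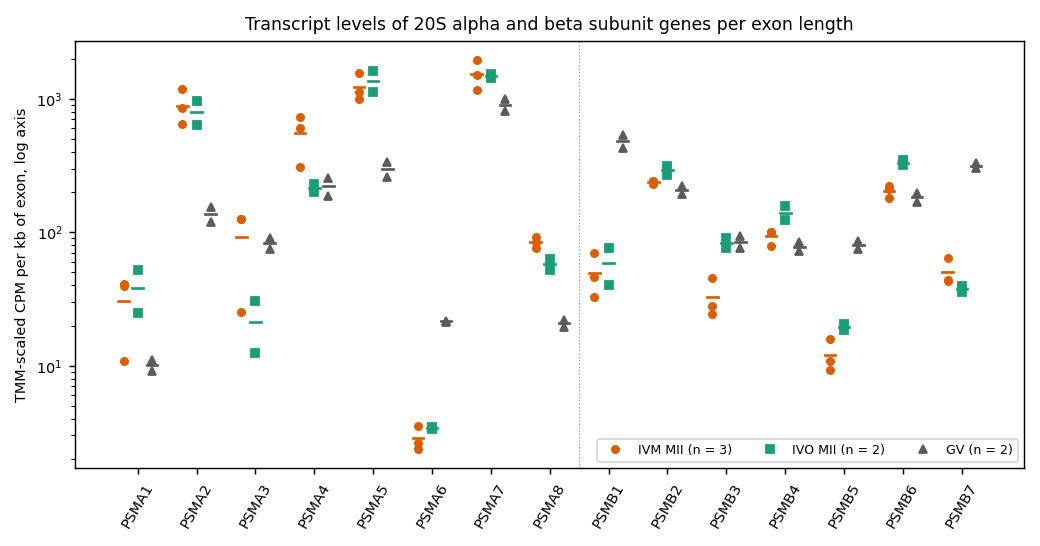
CPM per kilobase of exon (log axis) of the 14 standard 20S subunit genes and the germline PSMA8 in the 3 oocyte groups, 1 point a library. The alpha genes PSMA2 and PSMA5 lie above their GV level in MII, PSMA6, PSMB1, PSMB5 and PSMB7 lie below it, and the distance between the highest and lowest gene is widest in IVM MII replicate 3, at 734.

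Beta subunits of the immunoproteasome (PSMB8, PSMB9 and PSMB10, which replace the 3 cutting subunits in immune cells and under interferon) were near the limit of detection. Together they had 0, 15 and 8 counts in IVM MII, 32 and 22 counts in IVO MII, and 28 and 28 counts in GV. Most of these counts were from PSMB9 (0, 14 and 8 in IVM MII, 22 and 21 in IVO MII, 11 and 20 in GV). Per kilobase they made up 0%, 0.347% and 0.155% of the cutting subunits in IVM MII, 0.525% and 0.317% in IVO MII, and 0.162% and 0.185% in GV. PSMB9 and PSMB10 were tested and not called, with edgeR adjusted p-values of 0.107 or more. PSMB11, the thymus subunit, had 0 counts in all 7 libraries, which allows at most 0.0907 to 0.161 CPM in a library. Summed blood and immune markers stood at 0.0537 to 0.564 CPM in IVM MII, 0.0386 to 1.12 in IVO MII and 1.08 to 1.27 in GV, with CD14, CD3D and LYZ at 0 in all libraries.

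Of the ATPases of the 19S cap, all 5 that the name rule found fell in IVM MII against GV, and 2 of the 5 (PSMC1 and PSMC5) fell in IVO MII against GV. Of all genes tested, 17.8% and 13.5% fell in these comparisons. PSMC6, which the rule did not find, was not called in IVM MII against GV (log2 −0.96 ± 0.80, edgeR adjusted p = 0.373). PSMC2 and PSMC5 kept the IVM MII call whichever single library was left out, and PSMC1, PSMC3 and PSMC4 lost it without either GV library. No ATPase passed the test between the MII groups, where their lowest edgeR adjusted p was 0.168. PSMC5 had 5.47, 14.2 and 11.2 CPM in IVM MII, 2.70 and 5.24 CPM in IVO MII, and 139 and 140.3 CPM in GV. The MII libraries all lay far below GV, and the log2 value was −3.76 ± 0.48 (SE; edgeR adjusted p = 0.00156) in IVM MII and −5.13 ± 0.61 (edgeR adjusted p = 0.0021) in IVO MII. PSMC5 (chromosome 16, 61123764 to 61128666) shares 172 exon bases with FTSJ3 on the opposite strand, and whether the counting used strand is not given in the sources used here.

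PSMC1 had 9.23, 18.5 and 5.26 CPM in IVM MII, 5.40 and 7.17 CPM in IVO MII, and 41.0 and 51.6 CPM in GV, and the MII and GV libraries did not overlap. Its log2 fold change was −2.07 ± 0.53 (SE; edgeR adjusted p = 0.0166) in IVM MII and −2.88 ± 0.63 (adjusted p = 0.011) in IVO MII, each against GV. The IVM MII call of PSMC1 was lost without IVM MII replicate 1 or either GV library (adjusted p = 0.0549 to 0.102), and the IVO MII call without IVO MII replicate 1 (0.0627) or GV replicate 2 (0.0588). PSMC2 had 12.3, 11.9 and 20.5 CPM in IVM MII, 19.3 and 35.8 CPM in IVO MII, and 63.5 and 87.0 CPM in GV. PSMC2 fell in IVM MII (log2 −2.34 ± 0.43, edgeR adjusted p = 0.00413) and had a log2 value of −1.45 ± 0.48 in IVO MII (adjusted p = 0.0504).

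PSMC3 was close to the floor in MII, with 0.107, 0.127 and 0.188 CPM in IVM MII and 0.459 and 0.270 CPM in IVO MII, against 3.18 and 3.19 CPM in GV. In reads this was 2, 3 and 5 counts in IVM MII, and the fall in IVM MII against GV was called (log2 −4.44 ± 0.96, edgeR adjusted p = 0.00791). The size of that value rests on these few reads, and the call was lost without GV replicate 1 (adjusted p = 0.107) or GV replicate 2 (0.101). PSMC4 had 15.8, 13.0 and 51.9 CPM in IVM MII, 42.7 and 118 CPM in IVO MII, and 104 and 99.8 CPM in GV. IVM MII replicate 3 lay inside the IVO MII range, and IVO MII replicate 2 lay above both GV libraries with TMM scaling. Its raw count, 3057, was below those of GV (3423 and 3156). PSMC4 fell in IVM MII against GV (log2 −1.92 ± 0.64, edgeR adjusted p = 0.0452), a call that missed the threshold without IVM MII replicate 1 or 2 or either GV library (adjusted p = 0.114 to 0.140). PSMC6, outside the counts above, had 1.99, 1.94 and 0.752 CPM in IVM MII, 0.204 and 0.154 CPM in IVO MII, and 2.81 and 3.26 CPM in GV. It fell in IVO MII against GV (log2 −4.05 ± 1.04, edgeR adjusted p = 0.0205), a call lost when any of the IVO MII or GV libraries was left out (adjusted p = 0.0595 to 0.127).

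Of the 10 non-ATPase subunits of the 19S cap, 0 rose and 5 fell in each MII group against GV. Among all genes tested, 18.5% rose and 17.8% fell in IVM MII, and 14.6% rose and 13.5% fell in IVO MII. PSMD8, a lid subunit on chromosome 19 (38813788 to 38832643), was the most reduced proteasome gene with at least 5 CPM in IVM MII against GV. It had 1.88, 3.38 and 2.86 CPM in IVM MII, 2.29 and 3.08 CPM in IVO MII, and 96.5 and 83.2 CPM in GV. All 5 MII libraries lay close together and far below GV. The log2 fold change was −5.05 ± 0.42 (SE; edgeR adjusted p = 0.00117) in IVM MII and −5.06 ± 0.50 (edgeR adjusted p = 0.0021) in IVO MII.

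PSMD4, a ubiquitin receptor, had 6.33, 7.02 and 7.41 CPM in IVM MII, 7.69 and 30.5 CPM in IVO MII, and 118 and 146 CPM in GV. Only IVO MII replicate 2 left the low MII level. PSMD4 fell by 4.25 ± 0.55 on the log2 scale (SE; edgeR adjusted p = 0.00156) in IVM MII and by 2.79 ± 0.61 (edgeR adjusted p = 0.011; 0.0541 without GV replicate 2) in IVO MII, against GV. PSMD14, the deubiquitinase that strips ubiquitin chains from substrates, had 22.3, 21.2 and 19.97 CPM in IVM MII, 16.4 and 13.4 CPM in IVO MII, and 75.6 and 80.2 CPM in GV. The groups did not overlap, and the log2 fold change was −1.88 ± 0.32 (edgeR adjusted p = 0.00308) in IVM MII and −2.38 ± 0.37 (adjusted p = 0.00324) in IVO MII, each against GV.

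PSMD13, a lid subunit, had 2.84, 2.54 and 3.12 CPM in IVM MII, 1.94 and 7.71 CPM in IVO MII, and 48.7 and 48.8 CPM in GV. It fell in both MII groups (log2 −4.10 ± 0.58, edgeR adjusted p = 0.00185, in IVM MII; log2 −3.33 ± 0.66, adjusted p = 0.0074, in IVO MII), and it shares 250 exon bases with SIRT3 on the opposite strand. PSMD2, a scaffold of the cap's base, had 6.49, 9.72 and 7.97 CPM in IVM MII, 3.62 and 7.40 CPM in IVO MII, and 22.7 and 22.9 CPM in GV. PSMD2 fell by 1.499 ± 0.46 on the log2 scale (edgeR adjusted p = 0.0335) in IVM MII and by 2.05 ± 0.53 (adjusted p = 0.022) in IVO MII, and leaving out either GV library ended both calls, as did leaving out IVM MII replicate 1 or 2 (the IVM MII call) or IVO MII replicate 1 (the IVO MII call). The other 5 genes, PSMD1, PSMD3, PSMD7, PSMD11 and PSMD12, were called in no comparison with GV, with log2 values between −0.94 and 1.43. PSMD1 and PSMD11 had their highest values in IVO MII replicate 2 (358 and 398 CPM) and in IVM MII replicate 3 (307 and 325 CPM).

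**Figure D3:**
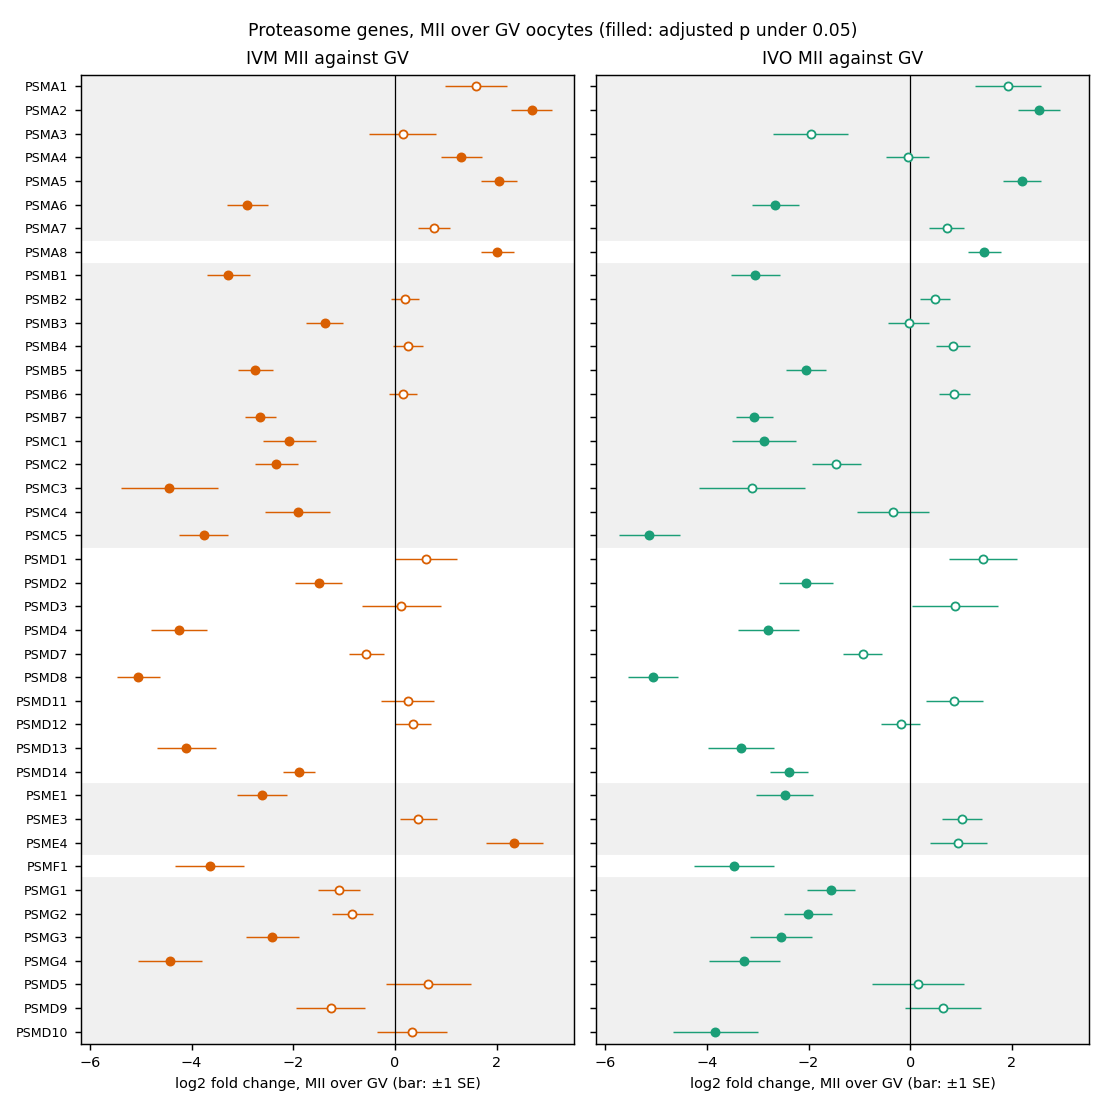
Log2 fold change against GV (horizontal axis) of each tested proteasome gene outside the immunoproteasome, 1 row a gene, with separate points for IVM MII and IVO MII, bars of ± 1 SE, and filled points for an edgeR adjusted p under 0.05. Filled points on the right belong to PSMA2, PSMA4, PSMA5, PSMA8 and PSME4, and no 19S gene has one there; PSMD8 and PSMC5 reach about −5.

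Of the activators that can replace the 19S cap, PSME4 rose in IVM MII and PSME1 fell in both MII groups, each against GV. PSME4, the large activator linked in mouse testis to the degradation of acetylated histones, had 43.0, 37.1 and 35.2 CPM in IVM MII, 22.4 and 6.79 CPM in IVO MII, and 6.35 and 8.73 CPM in GV. The IVM MII libraries stood above all others, and IVO MII replicate 2 lay within the GV range. PSME4 rose in IVM MII against GV by 2.35 ± 0.56 on the log2 scale (SE; edgeR adjusted p = 0.0125), a call lost without either GV library (adjusted p = 0.113 and 0.0655). In IVO MII against GV its value was 0.95 ± 0.56 (adjusted p = 0.233). PSME3, the nuclear activator, had 77.6, 73.9 and 129 CPM in IVM MII, 111 and 164 CPM in IVO MII, and 72.1 and 63.5 CPM in GV. With TMM scaling the MII libraries all lay above GV, but PSME3 was not called (edgeR adjusted p = 0.348 in IVM MII and 0.0856 in IVO MII). In raw counts IVM MII replicates 1 and 2 had 1447 and 1748, below the 2383 and 2008 of GV, from larger library totals. PSME1, part of the interferon-inducible activator, fell in both MII groups (log2 −2.61 ± 0.49, adjusted p = 0.00443, in IVM MII; log2 −2.47 ± 0.56, adjusted p = 0.0128, in IVO MII), although its row pools blocks on chromosomes 7 and 8. Without GV replicate 2 both calls of PSME1 were lost (adjusted p = 0.0754 in IVM MII and 0.145 in IVO MII), as was the IVO MII call without GV replicate 1 (0.0515). PSME2, its partner, had 0.0303 to 0.316 CPM and was not tested.

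PSMF1, known as an inhibitor of the core in vitro, had 4.61, 6.55 and 3.61 CPM in IVM MII, 1.58 and 9.45 CPM in IVO MII, and 70.7 and 52.4 CPM in GV. The MII libraries lay well below GV. PSMF1 fell by 3.64 ± 0.68 on the log2 scale (SE; edgeR adjusted p = 0.00441) in IVM MII and by 3.47 ± 0.79 (edgeR adjusted p = 0.0129; 0.0592 without GV replicate 1) in IVO MII, against GV.

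Of the 7 assembly chaperones, 0 rose, and 2 fell in IVM MII and 5 in IVO MII, each against GV. Among all genes tested, 18.5% rose and 17.8% fell in IVM MII, and 14.6% rose and 13.5% fell in IVO MII. With 7 genes, 0 that rose is near these shares. Each of the 5 calls in IVO MII missed the threshold when at least 1 library was left out, with adjusted p-values of up to 0.146 for PSMG1, 0.0949 for PSMG2, 0.0892 for PSMG3, 0.0629 for PSMG4 and 0.0671 for PSMD10, and so did that of PSMG3 in IVM MII (up to 0.064). PSMG1 and PSMG2 act as a pair on the alpha ring. PSMG1 had 78.1, 55.2 and 46.4 CPM in IVM MII, 25.8 and 61.4 CPM in IVO MII, and 126 and 131 CPM in GV, and it fell in IVO MII (log2 −1.56 ± 0.47, edgeR adjusted p = 0.0396). PSMG2 had 9.77, 13.2 and 14.3 CPM in IVM MII, 6.42 and 4.67 CPM in IVO MII, and 21.6 and 22.9 CPM in GV, and it also fell in IVO MII (log2 −2.01 ± 0.47, edgeR adjusted p = 0.0143). In IVM MII both genes were below GV in every library without passing the threshold (adjusted p = 0.0677 and 0.132).

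The other alpha-ring pair fell in both kinds of MII oocyte. PSMG3 had 4.02, 3.80 and 2.97 CPM in IVM MII, 1.89 and 4.70 CPM in IVO MII, and 19.2 and 19.2 CPM in GV (log2 −2.41 ± 0.52, edgeR adjusted p = 0.00852, in IVM MII; log2 −2.54 ± 0.61, adjusted p = 0.0161, in IVO MII). PSMG4 had 1.34, 1.61 and 0.451 CPM in IVM MII, 2.04 and 3.01 CPM in IVO MII, and 22.7 and 25.8 CPM in GV (log2 −4.42 ± 0.63, edgeR adjusted p = 0.00188, in IVM MII; log2 −3.26 ± 0.70, adjusted p = 0.0102, in IVO MII). No MII library of either gene reached a GV value.

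Chaperones of the 19S base are PSMD5, PSMD9 and PSMD10. PSMD10, which holds the ATPase PSMC4 during assembly, had 201, 433 and 51.4 CPM in IVM MII, 12.1 and 13.2 CPM in IVO MII, and 169 and 193 CPM in GV. Both IVO MII libraries were low, and the IVM MII libraries scattered on both sides of GV. PSMD10 fell in IVO MII against GV by 3.84 ± 0.84 on the log2 scale (SE; edgeR adjusted p = 0.011), a call lost without either IVO MII library, and its IVM MII against GV value was 0.34 ± 0.69 (adjusted p = 0.726). The gene lies on chromosome X (105190565 to 105198404) and shares 87 exon bases with ATG4A on the opposite strand. PSMD5 had 3.27, 4.35 and 12.9 CPM in IVM MII, 1.73 and 7.94 CPM in IVO MII, and 5.14 and 3.57 CPM in GV, and was called in no comparison.

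Between oocytes matured in culture and oocytes matured in the animal, no proteasome gene passed the adjusted threshold. At an unadjusted p under 0.05, 11 of the 43 genes did, as did 3460 of all 16374. DESeq2 called 3 higher and 2 lower, where it called 12.3% of all genes, and limma voom called 0 of 43. The nearest in edgeR was PSMD10, whose values are given above: all 3 IVM MII libraries lay above both IVO MII libraries. Its log2 fold change was 4.17 ± 0.83 (SE; 95% interval 2.30 to 6.05; edgeR adjusted p = 0.05003), DESeq2 gave an adjusted p of 5.88e-07, and over all alternatives run the adjusted p lay between 5.88e-07 and 0.173.

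The other extremes on the high side were PSMA3, PSMC5 and PSME4. PSMA3, an alpha subunit, had 133, 135 and 26.7 CPM in IVM MII, 32.2 and 13.3 CPM in IVO MII, and 79.5 and 97.0 CPM in GV. IVM MII replicate 3 fell among the IVO MII libraries, and the log2 fold change in IVM MII against IVO MII was 2.11 ± 0.71 (SE; edgeR adjusted p = 0.147). PSMC5 gave 1.37 ± 0.50 (adjusted p = 0.168) and PSME4 gave 1.40 ± 0.53 (adjusted p = 0.185), both with no overlap between the MII groups.

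On the low side stood PSMD9, PSMC4, PSMD4 and PSMB3. PSMD9, which binds the ATPase pair of PSMC3 and PSMC6 during assembly, had 104, 49.4 and 327 CPM in IVM MII, 421.2 and 788 CPM in IVO MII, and 350 and 420.7 CPM in GV. With TMM scaling, every IVM MII library lay below GV and every IVO MII library above it. In raw counts IVO MII replicate 1, with 8265, was below both GV libraries, with 11558 and 13302. The log2 fold change in IVM MII against IVO MII was −1.92 ± 0.67 (SE; edgeR adjusted p = 0.157). PSMC4 gave −1.58 ± 0.64 (adjusted p = 0.206), PSMD4 gave −1.47 ± 0.52 (adjusted p = 0.158) and PSMB3 gave −1.35 ± 0.37 (adjusted p = 0.0949). In all, 9 of the 43 tested genes had every IVM MII library above both IVO MII libraries and 10 had every one below. The same held for 2915 (17.8%) and 2624 (16.03%) of all 16374 genes tested, of which 0.892% and 0.58% were called higher and lower, so the members' counts are no result about them.

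**Figure D4:**
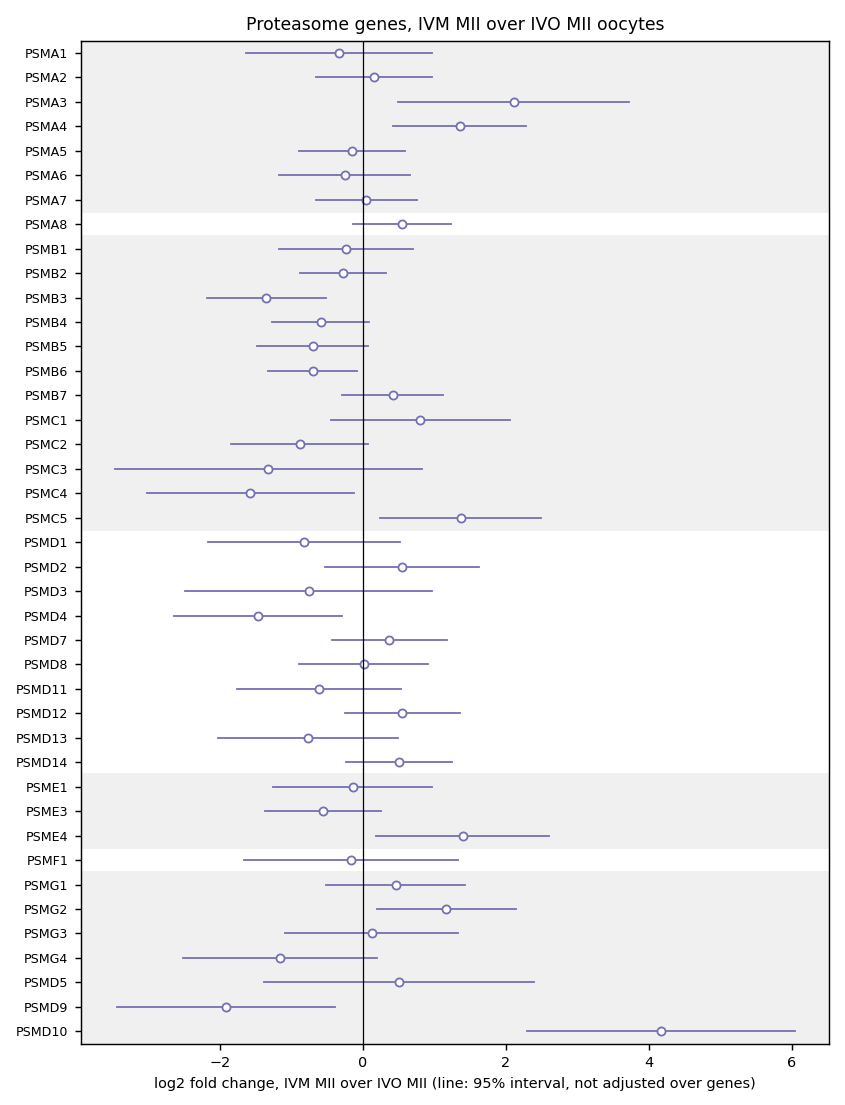
Log2 fold change of IVM MII over IVO MII (horizontal axis) for the tested proteasome genes outside the immunoproteasome, 1 open point a gene with its 95% interval, not adjusted over genes. The interval of PSMD10, 2.30 to 6.05, lies farthest from 0, and no gene had an edgeR adjusted p under 0.05.

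IVM MII replicate 3 stood apart from the other IVM MII libraries for many of the genes. Over the 43 tested genes it was the IVM MII library farthest from the others in 21, replicate 1 in 13 and replicate 2 in 9. The 13 include PSMB10, which had no counts in any IVM MII library and so no farthest one. The same count over all genes was not made, so these counts are no result about the proteasome genes. It lay more than 1 log2 unit above both others for PSMC4, PSMD1, PSMD5, PSMD9 and PSMD11 and more than 1 below both for PSMA1, PSMA3 and PSMD10, all on log2 of CPM plus 0.5. The median range within a group was 0.74 log2 units in IVM MII, 0.61 in IVO MII and 0.24 in GV. Without this library edgeR called PSMA3, PSMA4 and PSMD10 higher and PSMC4, PSMD1 and PSMD9 lower in IVM MII against IVO MII, in a fit that called 7.89% of all genes. PSMD10 then had a log2 value of 4.64 (edgeR adjusted p = 0.00885) and PSMD9 one of −3.0001 (adjusted p = 0.0215). Without IVO MII replicate 1, PSMD4 was called lower (log2 −2.14, adjusted p = 0.0356).

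The number of calls against GV depended on single libraries. The 18 genes that fell in IVO MII became 11 and 9 when GV replicate 1 or 2 was left out, and 12 when IVO MII replicate 1 was. Over all genes tested, the 2204 that fell became 833, 839 and 1418 in the same fits. The 3 that rose in IVO MII became 7 when IVM MII replicate 3 was left out, 5 when IVO MII replicate 2 was, and 2 when either GV library was. The 5 that rose in IVM MII against GV became 3 without either GV library, and the 19 that fell became 12 without GV replicate 2. Of the 24 calls in IVM MII against GV, 15 held whichever single library was left out, those of PSMA2, PSMA5, PSMA6, PSMA8, PSMB1, PSMB5, PSMB7, PSMC2, PSMC5, PSMD4, PSMD8, PSMD13, PSMD14, PSMF1 and PSMG4. Of the 21 in IVO MII against GV, 9 did, those of PSMA2, PSMA5, PSMA6, PSMB1, PSMB7, PSMC5, PSMD8, PSMD13 and PSMD14. How many of all called genes held in this way was not counted. Over all genes, the 5949 calls in IVM MII against GV became 2110 and 2550 without GV replicate 1 or 2. The 4596 in IVO MII against GV became 1484 and 1700.

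Genes that work with the proteasome were followed as a list of 23 partners, of which 22 were tested and UBQLN4 was not. Of these, 6 rose and 3 fell in IVM MII against GV, which is 27.3% and 13.6% beside 18.5% and 17.8% of all genes. The IVO MII against GV comparison had 5 that rose and 4 that fell, 22.7% and 18.2% beside 14.6% and 13.5%, and 0 were called in IVM MII against IVO MII (7 at an unadjusted p under 0.05). The 9 calls in each comparison with GV became 3 without GV replicate 1 and 4 without GV replicate 2. ZFAND5, DDI2 and NSFL1C kept theirs whichever library was left out, and the other 6 in each comparison did not. ZFAND5, a stimulator of proteasome activity, averaged 1633 ± 396 CPM in IVM MII (SD, n = 3), 1048 ± 595 in IVO MII (n = 2) and 101 ± 3.64 in GV (n = 2), and rose in both MII groups (log2 4.02 ± 0.48, edgeR adjusted p = 0.0014, in IVM MII; log2 3.38 ± 0.48, adjusted p = 0.00269, in IVO MII). AKIRIN2, which brings proteasomes into the nucleus, averaged 772 ± 96.7 CPM in IVM MII, 924 ± 256 in IVO MII and 216 ± 40.9 in GV, and rose in both (log2 1.84 and 2.10). DDI2, the protease that activates the proteasome gene regulator NFE2L1, and USP14, a deubiquitinase on the cap, also rose in both. UCHL5, another deubiquitinase, and POMP, which helps the core mature, were called higher in IVM MII, and the ligase UBE3C in IVO MII.

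Among the partners that fell, NSFL1C, a cofactor of the unfoldase VCP, averaged 5.36 ± 2.36 CPM in IVM MII, 4.84 ± 2.16 in IVO MII and 65.5 ± 1.65 in GV (log2 −3.61 ± 0.49, edgeR adjusted p = 0.00175, in IVM MII; log2 −3.75 ± 0.58, adjusted p = 0.00332, in IVO MII). VCP, which pulls ubiquitinated proteins out of complexes, fell with it (log2 −1.79 and −2.09). The ubiquitin receptor ADRM1 was called lower in IVM MII, and SEM1 and NPLOC4 in IVO MII. NPLOC4 had 0 and 1 counts in the IVO MII libraries, under the floor of 3, and 66 and 38 in GV. Its call was also lost with a block for the replicate number, by title (edgeR adjusted p = 0.0673) or by alignment name (0.0839). For a gene called in 1 MII group alone, the test of the difference is the IVM MII against IVO MII comparison, in which edgeR called no partner.

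PSMC3IP, the name match outside the complex, had 2.58, 3.21 and 1.504 CPM in IVM MII, 0.306 and 1.20 CPM in IVO MII, and 8.77 and 8.76 CPM in GV. It fell in IVO MII against GV (log2 −3.52 ± 0.86, edgeR adjusted p = 0.0174; 0.0556 to 0.0859 without IVO MII replicate 1 or either GV library), and 409 of its 2807 exon bases are shared with MLX on the opposite strand.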

How the data were processed

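The authors deposited raw read counts per gene, unnormalized, with exon coordinates and gene lengths in bases. The tools listed, per the submitters' processing notes, are featureCounts 2.0.1, SAMtools 1.15.1, Bowtie2 2.4.5, Trim Galore 0.6.7 and DESeq2. The genome build, the strand setting and the handling of reads with several matches were not given in the sources used here, so coordinates stand on an unnamed build, and overlapping or duplicated genes are uncertain. Broken lines (10) were left out.

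From the deposited counts, edgeR 4.0.16 in R 4.3.3 fitted all 7 libraries together (TMM scaling, filterByExpr, glmQLFit and glmQLFTest, two-sided, Benjamini-Hochberg over 16374 genes). CPM used TMM-scaled library sizes, and CPM per kilobase divided them by the deposited length. DESeq2 1.42.0 and limma 3.58.1 served as alternatives. The model was tested on simulated data. PSMC6 and the partner DDI2 were found by their gene identifiers in a RefSeq gene table of assembly T2T-MFA8v1.1, used for names only. The partners SEM1, ECPAS and UFD1 were found under older symbols. The floors hold for counting error alone, because PCR copies are not independent molecules.

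Genes named with their values were those called between the MII groups, the 4 highest and the 4 lowest in each comparison at a mean of 5 CPM or more, called genes of roles called 1 way in 50% or more of their members, and a fixed set (PSMA7, PSMA8, PSMB5 to PSMB10, PSME3, PSME4). Others given were chosen after their values were seen. Members and lists were chosen with earlier results of these data known.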

Additional observations from a re-analysis of the deposited data

Results flagged for a closer look

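With TMM scaling, PSMD9, a chaperone of the 19S base, lay on opposite sides of GV in the 2 kinds of MII oocyte. It had 104, 49.4 and 327 CPM in IVM MII, all below the GV libraries, and 421.2 and 788 CPM in IVO MII, both above the GV libraries at 350 and 420.7 CPM. Neither difference from GV passed the test (log2 −1.27 ± 0.67, edgeR adjusted p = 0.167, in IVM MII; log2 0.65 ± 0.75, adjusted p = 0.544, in IVO MII). The log2 fold change in IVM MII against IVO MII, which is the difference between those values, was −1.92 ± 0.67 (SE; edgeR adjusted p = 0.157) and missed the threshold. It passed with DESeq2 (adjusted p = 0.0344), with the title number as a replicate block (log2 −2.97, adjusted p = 0.0149), with the number of the alignment name as the block (0.0341) and without IVM MII replicate 3 (log2 −3.0001, adjusted p = 0.0215), and its adjusted p over all alternatives ran up to 0.404. The margin to GV was narrow, with IVO MII replicate 1 at 421.2 CPM beside 420.7 CPM in GV replicate 2. It depended on the scaling. In raw counts IVO MII replicate 1 had 8265 for PSMD9, below the 11558 and 13302 of GV. Its library total was the larger one (23550299 against 23249732 and 22901970).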

How the results depend on the processing

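No proteasome gene named in the report changed direction with a call under any of the alternatives. In IVM MII against IVO MII the counts of proteasome genes called higher and lower, 0 and 0, became 3 and 2 with DESeq2 and 1 and 0 without the filter on low counts, with at least 10 counts in every library of a group, or with edgeR's newer fit (an alternative added after seeing the data). Leaving out each library in turn gave 0 to 3 higher and 0 to 3 lower. In IVO MII against GV the 3 that rose became 5 with only the groups compared, and leaving out a library gave 2 to 7 higher and 9 to 21 lower. The same in IVM MII against GV gave 3 to 6 higher and 12 to 20 lower. Partner genes called in IVM MII against IVO MII numbered 1 without the filter, 3 with DESeq2 and 0 to 4 with a library left out, and their counts ran from 3 to 12 in IVO MII against GV and from 3 to 13 in IVM MII against GV. Over all genes the 241 calls of IVM MII against IVO MII became 731 without the filter, 2010 with DESeq2, 497 with limma voom, 54 with only the groups compared, 774 with the newer edgeR fit and 0 to 1277 with a library left out. Against GV, leaving out a library gave 1484 to 5517 calls in IVO MII and 2110 to 6716 in IVM MII. The cause of these shifts was not tested.

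Whether the replicate numbers pair the libraries could not be decided. Deviations from the group means correlated between −0.149 and 0.21 for libraries with the same title number. With the same number in the alignment name they correlated between −0.149 and 0.271. In a group of 2 libraries the deviations mirror each other, so these values are tied and cannot exclude pairing. With the title number as a replicate block, proteasome calls in IVM MII against IVO MII were 3 higher and 3 lower, those that rose in IVO MII against GV 5, partner calls between the MII groups 5, and calls over all genes between them 1238. With the number in the alignment name as the block, chosen after seeing the data, these were 2 and 2, 4, 1 and 832.

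Groups of 2 and 3 libraries limit every test, and the immunoproteasome genes rest on few reads. RLE scaling moved the median log2 value of all genes against GV to −0.24 in IVM MII and −0.26 in IVO MII, and upper quartile scaling to −0.21 and −0.15. Proteasome calls against GV then stood at 4 higher and 20 lower (RLE) and 5 and 19 (upper quartile) in IVM MII, and at 3 and 20 and 3 and 18 in IVO MII.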
